A study of Homo sapiens with 6 samples.

Results

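The myogenic regulatory factors are the 4 human genes MYOD1, MYOG, MYF5 and MYF6, taken by symbol from 23540 human genes in a table of read counts. Each had 1 RefSeq transcript row, and the row of the mouse Myod1 transgene was set beside them. The material was poly(A) RNA of cultured fibroblasts from human skin, a single primary line, and each of 3 groups had 2 libraries. The untreated cells were labelled as expressing no added gene. The WT-MyoD cells carried a lentivirus in which doxycycline turns on wild-type mouse MyoD. The VP64-MyoD cells carried the same vector for a fusion in which VP64, a strong activation domain, precedes mouse MyoD after a short linker. In both vectors a red fluorescent protein was made from the same transcript. Transduced cells were selected with puromycin at 1 µg/mL, given doxycycline at 3 µg/mL once confluent, and harvested on day 10. Whether untreated cells also received virus, puromycin or doxycycline is not in the labels, so differences from them hold all of these together with MyoD.

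The factors of this family share a basic helix-loop-helix domain, pair with E proteins such as the product of TCF12, and bind E-boxes (CANNTG) in muscle genes. MYF5 and MYOD1 commit embryonic cells to the muscle lineage, and MYOG drives myoblasts into differentiation. MYF6, also called MRF4, acts in both steps and is the family member most abundant in adult muscle fibres. Dermal fibroblasts make little or none of them, and MyoD from a vector can switch a fibroblast to the muscle programme.

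With either form of MyoD, reads counted on MYOD1 and MYOG were higher than in untreated cells, and both were higher with VP64-MyoD than with the wild-type form. Reads of the mouse transgene can be counted on MYOD1, and their part in its level with WT-MyoD was not tested. MYF5 and MYF6 had no read in any of the 6 libraries. Of the 4 genes, 2 passed the filter on low counts, and the 2 were called higher in every comparison. The background was large: by edgeR's quasi-likelihood test at an adjusted p under 0.05, 47.9% of 15778 features were called with WT-MyoD against untreated cells, 25.7% higher and 22.2% lower. For VP64-MyoD against untreated cells 63.1% were called, 33.0% higher and 30.0% lower. For VP64-MyoD against WT-MyoD 56.6% were called, 28.4% higher and 28.2% lower. The split against untreated cells depends on the scaling: with library totals alone, 5802 features were higher and 1876 lower with WT-MyoD (4057 and 3498 with TMM), and 6787 higher and 3125 lower with VP64-MyoD (5210 and 4739 with TMM). The comparisons share libraries, so their counts are not independent. These are bulk libraries, in which more RNA per cell and more cells expressing a gene cannot be told apart.

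Libraries held between 40997586 and 53804224 counts. All counts were even, so 2 counts were taken as 1 read pair. Levels are CPM, read counts scaled to library size with TMM factors. All 10 fibroblast markers listed for the check passed the filter, with a summed level of 43414 to 45833 CPM in untreated cells, 29771 to 33951 CPM with WT-MyoD and 31169 to 33741 CPM with VP64-MyoD. They did not move together: 4 rose and 4 fell with WT-MyoD (median log2 change -0.04), and 2 rose and 7 fell with VP64-MyoD (median -0.47). The sum rests largely on the collagen genes COL1A1 and COL1A2. On average COL1A1 stood at 18932, 9716 and 14228 CPM in untreated, WT-MyoD and VP64-MyoD cells, and COL1A2 at 13272, 9420 and 9263 CPM. The 10 markers of other skin, blood and fat cells summed to 69.1 to 70.7 CPM in untreated cells, 177 to 181 CPM with WT-MyoD and 47.0 to 48.6 CPM with VP64-MyoD. Most of that was CD68, a lysosomal protein abundant in macrophages. The epithelial marker EPCAM and the keratinocyte marker KRT5 lay at or near 0. KRT14, also of keratinocytes, reached at most 0.292 CPM but was called higher with WT-MyoD (adjusted p = 0.032 by edgeR), and the endothelial PECAM1, at most 1.33 CPM, was called higher with VP64-MyoD (0.0046). The part of such cells in the results was not tested.

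**Figure D1:**
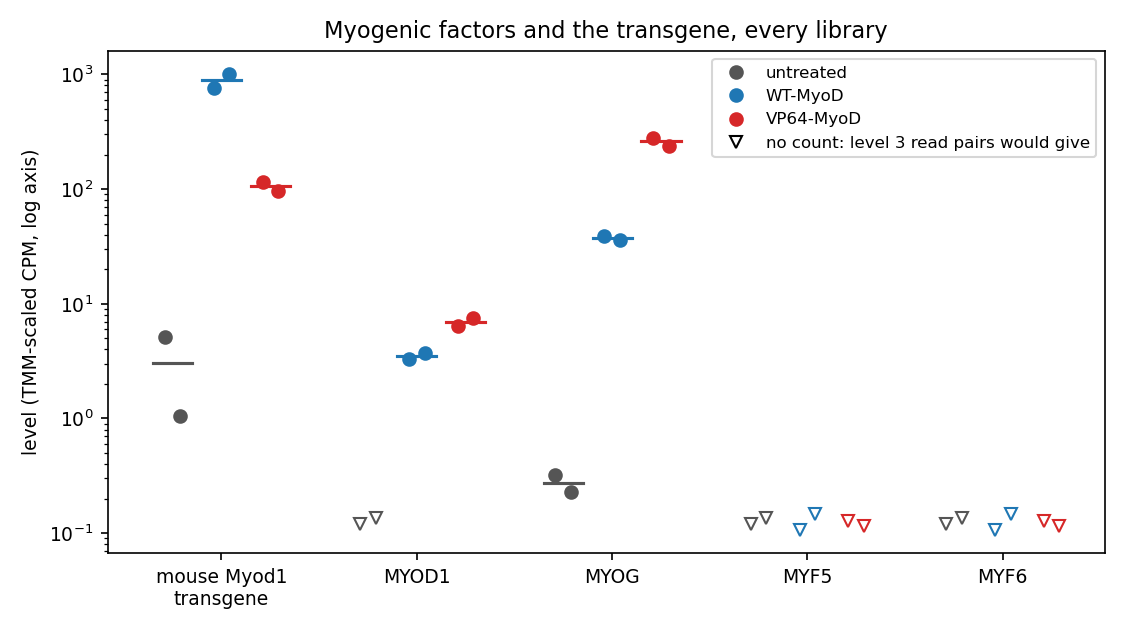
Level of each myogenic factor and of the mouse transgene in each library, in TMM-scaled CPM on a log axis. Filled points are libraries and bars are group means. Open triangles mark libraries with no count, drawn at the level that 3 read pairs would give. MYOG is the only member with reads in all 6 libraries, and MYF5 and MYF6 have triangles only.

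RNA of the mouse transgene, the factor supplied by the vectors, was not equal between the forms. It lay at 758 and 1015 CPM in the WT-MyoD libraries, at 115 and 96.5 CPM in the VP64-MyoD libraries, and at 5.09 and 1.05 CPM in the untreated ones. The groups did not overlap, though the share of all features without overlap was not counted. Transgene RNA ranked 119th and 88th in level among 15779 features with WT-MyoD, and 1684th and 2092nd with VP64-MyoD. The fusion cells had less of it (log2 change -3.06, SE 0.25, adjusted p = 4.2e-08 by edgeR), so any difference between the forms goes with a difference in transgene RNA.

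MYOD1 is the human gene for the factor that the vectors supply from mouse. Both untreated libraries had 0 counts of it, the WT-MyoD libraries 186 and 152, and the VP64-MyoD libraries 298 and 390. These are 3.28 and 3.70 CPM with WT-MyoD and 6.40 and 7.44 CPM with VP64-MyoD. No 2 groups overlapped, but the share of all features without overlap was not counted. Counting error alone gives 95% Poisson intervals of 2.65 to 4.02 and 2.91 to 4.63 CPM with WT-MyoD, and of 5.42 to 7.52 and 6.43 to 8.56 CPM with VP64-MyoD. The untreated group was set to a floor of 3 read pairs in all. The mean MYOD1 level was 54.6 times that floor with WT-MyoD and 108 times with VP64-MyoD. These folds leave out counting error in the MyoD libraries and take every read as one of the human gene. In the fit MYOD1 was called higher with WT-MyoD (edgeR adjusted p = 9.9e-10) and with VP64-MyoD (edgeR adjusted p = 5.6e-11). Between the forms it was 1.99-fold higher with VP64-MyoD (log2 change 0.99, SE 0.16, adjusted p = 1.05e-04 by edgeR). Even so, MYOD1 was a rare transcript, ranked between 9956th and 11608th of 15779 features in the induced libraries.

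Reads of the mouse transgene can be counted on the human gene where the coding sequences match, so the share of MYOD1 reads to transgene reads was read in each library. With WT-MyoD it was 0.434% (exact 95% binomial interval 0.350 to 0.531) and 0.364% (0.287 to 0.456). With VP64-MyoD it was 5.55% (4.71 to 6.48) and 7.71% (6.70 to 8.82). Shares with VP64-MyoD were therefore higher in both libraries, though the transgene was lower. In untreated cells MYOD1 had 0 reads beside 127 and 23 transgene read pairs, which allows shares of up to 2.36% and 13.0% and does not tell a share as low as that with WT-MyoD from none.

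If every MYOD1 read with WT-MyoD were a transgene read, the same share (0.399% over both libraries) of the VP64-MyoD transgene would give 0.461 and 0.385 CPM of MYOD1. The measured levels were 13.9 and 19.3 times that. Taking that share off left 6.50 ± 0.79 CPM (SD, n = 2) with VP64-MyoD, and the lower library, at 5.94 CPM, stayed above the higher WT-MyoD library at 3.70 CPM. At a constant share, transgene reads would make up 7.20% and 5.18% of MYOD1 reads with VP64-MyoD. How much of the MYOD1 level with WT-MyoD came from the human gene was not tested.

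**Figure D2:**
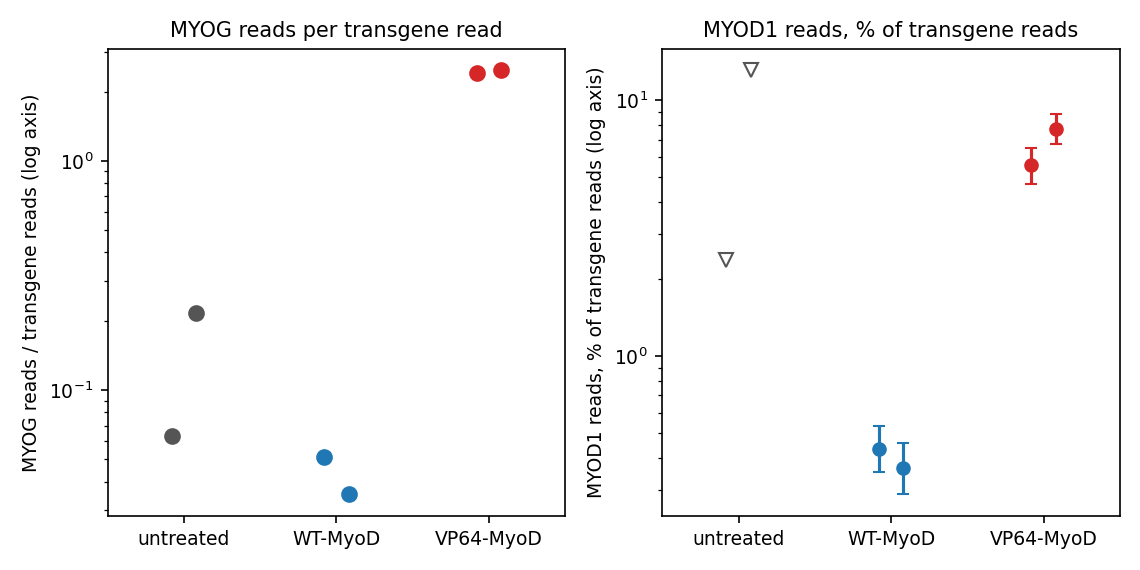
Reads of MYOG per read of the mouse transgene (left) and reads of MYOD1 as a percentage of transgene reads (right), in each library, on log axes. Bars on the right are exact 95% binomial intervals, and open triangles mark libraries without MYOD1 reads, drawn at the share 3 read pairs would give. Both VP64-MyoD libraries lie above both WT-MyoD libraries in each panel.

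MYOG, which encodes myogenin, changed most in absolute level of the 4 genes. It is a classical target of MyoD, and its promoter is shown because the gene moved with both forms. The window is chr1:203085963-203086262 of GRCh38.p14, minus strand, from RefSeq. Capitals mark matches, on either strand, to the E-box CANNTG and to the MEF2-like pattern CTANNNNTA.
MYOG: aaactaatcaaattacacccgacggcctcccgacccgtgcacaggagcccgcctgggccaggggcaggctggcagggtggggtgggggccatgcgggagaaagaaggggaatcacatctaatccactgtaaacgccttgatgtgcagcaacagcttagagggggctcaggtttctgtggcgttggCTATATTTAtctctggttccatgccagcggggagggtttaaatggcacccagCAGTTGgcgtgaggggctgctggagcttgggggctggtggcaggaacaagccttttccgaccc
The E-box match is CAGTTG, starting 13 bases before the start site, and the MEF2-like match is CTATATTTA, starting 65 bases before it. An E-box match is common: 68.9% of 27305 promoter windows of this length hold 1 or more, and 16.7% hold the MEF2-like pattern. Windows were found for 3 of the 4 genes, all but MYOD1.

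MYOG stood at 0.321 and 0.227 CPM in untreated cells, at 38.6 and 35.7 CPM with WT-MyoD, and at 281 and 239 CPM with VP64-MyoD. The untreated values rest on 8 and 5 read pairs, with Poisson intervals of 0.138 to 0.632 and 0.0738 to 0.530 CPM. The 3 groups were far apart and each pair of libraries was close. With WT-MyoD the rise was 133-fold (log2 change 7.06, SE 0.16, adjusted p = 1.3e-14 by edgeR), and with VP64-MyoD it was 931-fold (log2 change 9.86, SE 0.15, adjusted p = 6.9e-17 by edgeR). MYOG was 6.99-fold higher with VP64-MyoD than with the wild-type form (log2 change 2.81, SE 0.08, adjusted p = 4.7e-13 by edgeR), the 372nd highest fold change of 15779 features. Its rank in level went from 4905th and 5149th with WT-MyoD to 529th and 647th with VP64-MyoD.

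A second gene overlaps MYOG in the annotation: MYOPARR, a long non-coding RNA. It has no row of its own in the count table, and the transposase libraries do not keep the strand, so any reads of MYOPARR within MYOG exons cannot be told apart from those of MYOG.

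Set against the transgene in the same library, MYOG had 0.0510 and 0.0351 reads per transgene read with WT-MyoD. With VP64-MyoD it had 2.43 and 2.48. Thus MYOG had more reads than the transgene in VP64-MyoD cells, while in WT-MyoD cells the transgene had 19.6 and 28.5 times the reads of MYOG. These are reads with no correction for length, so they compare the ratio between libraries and not the number of transcripts of each gene. The log2 ratio was 5.86 higher with VP64-MyoD (1.30 ± 0.021 against -4.56 ± 0.38, SD, n = 2). No test of this ratio was run; the smallest two-sided p that an exact permutation test of 2 against 2 libraries can give is 0.333.

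The untreated libraries had ratios of 0.0630 and 0.217 on very few reads. Transgene reads in them equalled 0.574% and 0.118% of the mean WT-MyoD level. At the same percentages of the WT-MyoD level, MYOG would stand at 0.213 and 0.0438 CPM, against 0.321 and 0.227 CPM measured. The first of these is inside the counting interval of its library and the second is below its interval. Set against VP64-MyoD instead, the untreated transgene equalled 4.81% and 0.986% of the mean level. At those percentages MYOG would stand at 12.5 and 2.56 CPM, against the same measured levels. The source of the transgene reads in untreated libraries was not tested. Without untreated replicate 1, which held more transgene reads, the log2 fold change of MYOG was 7.34 with WT-MyoD and 10.14 with VP64-MyoD.

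Levels of MYOG and MYOD1 can be compared per kilobase of transcript (1528 and 1801 bases in GENCODE). MYOG stood at 25.3 and 23.3 CPM per kilobase with WT-MyoD, against 1.82 and 2.05 for MYOD1. With VP64-MyoD it stood at 184 and 157, against 3.56 and 4.13 for MYOD1. So MYOG was the more abundant in all 4 induced libraries, by 13.9-fold and 11.4-fold with WT-MyoD and by 51.6-fold and 37.9-fold with VP64-MyoD. By reads counted on each gene, the order in every induced library was MYOG, then MYOD1, then MYF5 and MYF6 without reads. The folds and the order take every MYOD1 read as one of the human gene, which was not tested for WT-MyoD.

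In the authors' deposited table, which lists 3135 transcripts, MYOG had a log2 fold change over untreated of 7.09 with WT-MyoD and 9.89 with VP64-MyoD. None of the other 3 genes is among its rows. Of the transcripts in the authors' deposited table, 0 had an untreated level of 0, and MYOD1 had no count in untreated cells. The rule by which transcripts were listed there is not known, and why MYOD1 is absent was not tested.

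MYF5, next to MYF6 on chromosome 12, is the earliest factor of the family in the embryo. It had 0 counts in each of the 6 libraries. A count of 0 allows a level of up to 0.106 to 0.146 CPM, depending on the library. Over the 2 VP64-MyoD libraries together the limit is 0.0606 CPM and over the 2 WT-MyoD libraries 0.0614 CPM, on counting error alone. MYF6 also had 0 counts throughout, with the same limits. Neither gene was detectable at this depth, and neither can be given a fold change. The limits lie under the untreated level of MYOG, the lowest level above 0 of any member.

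The promoter windows of both silent genes are shown for comparison with that of MYOG, with the same marks. They are chr12:80716662-80716961 and chr12:80707384-80707683 of GRCh38.p14, plus strand, from RefSeq.
MYF5: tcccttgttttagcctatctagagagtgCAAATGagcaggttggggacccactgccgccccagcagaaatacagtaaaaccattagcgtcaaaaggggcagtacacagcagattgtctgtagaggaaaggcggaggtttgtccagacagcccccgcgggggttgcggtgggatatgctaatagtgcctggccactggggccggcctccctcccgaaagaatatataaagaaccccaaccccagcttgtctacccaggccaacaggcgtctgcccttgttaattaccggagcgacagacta
MYF6: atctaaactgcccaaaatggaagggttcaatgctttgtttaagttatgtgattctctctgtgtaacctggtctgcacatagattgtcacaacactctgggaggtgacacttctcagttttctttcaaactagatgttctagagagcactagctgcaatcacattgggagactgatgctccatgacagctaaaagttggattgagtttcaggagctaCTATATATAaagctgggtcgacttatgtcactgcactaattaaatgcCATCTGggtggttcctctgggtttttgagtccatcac
Each of the 3 windows holds 1 E-box match, CAAATG in MYF5 and CATCTG in MYF6, so the presence of these letters does not set MYOG apart. MYF6 has a MEF2-like match, CTATATATA, and MYF5 has none. The stricter E-box CAGCTG, found in 17.7% of windows, is in none of the 3.

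The other protein-coding genes around the members were too few to show or exclude a pattern beyond the background. Of 12 neighbours, the nearest 2 on each side of each locus, 10 had a row in the count table and 8 passed the filter. With WT-MyoD 2 of the 8 rose (25.0%, against 25.7% of all features) and 0 fell. With VP64-MyoD 3 rose (37.5%, against 33.0%) and 2 fell (25.0%, against 30.0%). Between the forms 2 were higher with VP64-MyoD (25.0%, against 28.4%) and 2 lower (25.0%, against 28.2%). Only SERGEF passed the filter beside MYOD1, so nearly all neighbours tested lay beside MYOG and the MYF5 pair, as did the changes.

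Beside MYOG, ADORA1, which encodes an adenosine receptor, went from 1.01 ± 0.27 CPM to 26.2 ± 1.0 CPM with WT-MyoD and 23.4 ± 0.28 CPM with VP64-MyoD (SD, n = 2). Unlike MYOG it was not called different between the forms (log2 change -0.16, SE 0.09, adjusted p = 0.16 by edgeR). MYBPH, a myosin-binding protein of the sarcomere, went from 0.724 ± 0.0038 to 120 ± 4.4 and 206 ± 19 CPM, and was higher with VP64-MyoD (log2 change 0.78, SE 0.07, adjusted p = 1.4e-07 by edgeR). On the other side TMEM183A, a membrane protein, was at 35.2 ± 0.11, 33.7 ± 2.6 and 44.6 ± 0.14 CPM, higher with VP64-MyoD than in either other group.

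Beside MYF5 and MYF6, PTPRQ, a receptor phosphatase, stood at 3.85 ± 0.40 CPM in untreated cells, 2.98 ± 0.083 CPM with WT-MyoD and 0.714 ± 0.15 CPM with VP64-MyoD. In PTPRQ the forms differed, with less under VP64-MyoD (log2 change -2.07, SE 0.23, adjusted p = 1.5e-06 by edgeR). ACSS3, a mitochondrial acyl-CoA synthetase, was lower too, at 1.48 ± 0.28 against 3.68 ± 0.24 CPM (log2 change -1.30, SE 0.19, adjusted p = 3.0e-05 by edgeR). OTOGL and LIN7A were not called in any comparison. Beside MYOD1, SERGEF was not called in any comparison, and USH1C and KCNC1 had at most 14 counts in a library.

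The E proteins are the partners that myogenic factors need to bind DNA, and all 3 were present in untreated cells. They summed to 511 to 517 CPM in untreated cells, 523 to 557 CPM with WT-MyoD and 593 to 595 CPM with VP64-MyoD. TCF12 stood at 299 ± 9.6 CPM with VP64-MyoD against 252 ± 2.7 CPM with WT-MyoD (log2 change 0.25, SE 0.06, adjusted p = 0.0035 by edgeR). It was the only one of the 3 called between the forms, and not without VP64-MyoD replicate 1 (edgeR adjusted p = 0.063). With WT-MyoD, 0 of the 3 rose and 1 fell against untreated cells, a count of calls that ran from 0 to 2 when single libraries were left out (0 without untreated replicate 1, 2 without WT-MyoD replicate 1). Scaling by library totals alone turned this to 2 higher and 0 lower. With VP64-MyoD 2 of the 3 rose and 1 fell. Of all features 25.7% rose and 22.2% fell with WT-MyoD, and 33.0% rose and 30.0% fell with VP64-MyoD.

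Inhibitors of the family moved in both directions, and the forms differed in them. Of 15 listed, 14 passed the filter. With WT-MyoD 6 rose and 5 fell (median log2 change 0.07, against 0.00 over all features), and with VP64-MyoD 7 rose and 7 fell (0.09, against 0.03). Between the forms 6 were higher and 7 lower with VP64-MyoD, with a median of -0.15 against 0.02. The share of all features called was 47.9% with WT-MyoD, 63.1% with VP64-MyoD and 56.6% between the forms. ID proteins bind E proteins and keep them from myogenic factors. ID1 stood at 9.31 ± 1.5 CPM in untreated cells, 36.7 ± 3.7 CPM with WT-MyoD and 6.34 ± 0.75 CPM with VP64-MyoD. ID2 stood at 59.8 ± 3.3, 96.5 ± 6.3 and 33.6 ± 1.7 CPM. Both thus rose with WT-MyoD (edgeR adjusted p = 7.8e-10 for ID1 and 7.0e-07 for ID2) and fell with VP64-MyoD (edgeR adjusted p = 0.0015 and 8.8e-08). Of the other listed ID genes, ID3 moved the same way (log2 change 1.21 with WT-MyoD and -0.31 with VP64-MyoD). ID4, in contrast, fell with both forms (-0.67 and -1.12).

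The repressors MSC and BHLHE40, which are helix-loop-helix proteins too, did the reverse of ID1 and ID2. MSC, also called MyoR, stood at 26.3 ± 0.78 CPM in untreated cells, 7.91 ± 1.2 CPM with WT-MyoD and 37.6 ± 1.8 CPM with VP64-MyoD. BHLHE40 stood at 173 ± 1.1, 61.6 ± 0.82 and 291 ± 2.8 CPM. Each was higher with VP64-MyoD than with the wild-type form, by log2 fold changes of 2.24 and 2.24 (SE 0.10 and 0.06, edgeR adjusted p = 4.2e-11 and 2.5e-13). No 2 groups overlapped for ID1, ID2, MSC or BHLHE40, the 4 inhibitors picked for the smallest adjusted p between the forms. The share of all features without such overlap was not counted.

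Factors listed as upstream of the family in embryonic muscle were mostly low. Whether each of them acts before the family in these cells was not tested. Of 11 listed, 9 passed the filter. PAX7, the factor of muscle stem cells, had no count in any library. With WT-MyoD 4 rose and 2 fell; the median log2 change was 0.72, or 0.61 with LBX1, at 0 in untreated cells, set to its bound. With VP64-MyoD 8 rose and 1 fell (median 1.08). Over all features 25.7% rose and 22.2% fell with WT-MyoD, and 33.0% rose and 30.0% fell with VP64-MyoD. Between the forms VP64-MyoD cells had more of 7 and less of 1 (median 0.90), where 28.4% of all features were higher and 28.2% lower. PITX3, a homeobox factor of muscle and midbrain, stood at 0.126 ± 0.049, 10.2 ± 0.11 and 26.8 ± 2.4 CPM, a log2 difference of 1.39 between the forms (SE 0.10, edgeR adjusted p = 1.3e-08). SIX4, which with its EYA partners activates the family in limb muscle, stood at 28.5 ± 1.3, 43.5 ± 2.6 and 60.4 ± 2.4 CPM. TBX1, a factor of head muscle, stood at 14.9 ± 0.73, 11.7 ± 1.5 and 21.9 ± 0.27 CPM. Its fall with WT-MyoD (adjusted p = 0.011 by edgeR) was not called under library totals (0.27), without untreated replicate 1 (0.095) or without WT-MyoD replicate 2 (0.090). In each of these settings 4 upstream factors rose and 0 fell. LBX1, a factor of migrating limb precursors, had no count in untreated cells, 2 and 2 in the WT-MyoD libraries, and 56 and 38 in the VP64-MyoD libraries (edgeR adjusted p = 4.4e-05 between the forms).

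MEF2 factors bind beside myogenic factors at muscle genes. Of the 4, 2 rose and 0 fell with WT-MyoD, and 2 rose and 1 fell with VP64-MyoD. For all features the shares called were 47.9% and 63.1%. MEF2C stood at 19.6 and 20.4 CPM in untreated cells, 61.1 ± 0.13 CPM with WT-MyoD and 93.5 ± 1.7 CPM with VP64-MyoD, and was higher with VP64-MyoD than with the wild-type form (log2 change 0.61, SE 0.06, adjusted p = 6.4e-07 by edgeR). MEF2A stood at 124 ± 4.7, 132 ± 5.0 and 110 ± 1.3 CPM. Cells with the fusion had less of it than cells with the wild-type form (log2 change -0.27, SE 0.06, adjusted p = 0.0019 by edgeR). Against untreated cells its fall of -0.18 (log2) turned to 0.0094 when libraries were scaled by their totals alone, and was not called without untreated replicate 2 (adjusted p = 0.17 by edgeR), VP64-MyoD replicate 1 (0.14) or VP64-MyoD replicate 2 (0.088).

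Muscle genes with known sites for myogenic factors rose almost as a block. All 32 listed passed the filter. With WT-MyoD 31 rose and 0 fell, and their median log2 change was 6.96 (6.81 with TNNI2 and CACNG1, at 0 in untreated cells, at their bound). The 31 ran from 29 to 31 when single libraries were left out. With VP64-MyoD 30 rose and 0 fell, with a median of 9.58 by either count. Among all features 25.7% rose with WT-MyoD, 33.0% rose with VP64-MyoD and 28.4% were higher between the forms. Between the forms 29 were higher with VP64-MyoD and 1 lower, with a median of 2.63, near the 2.81 of MYOG itself. The list was drawn up from genes known to respond to MyoD and with earlier results of these data known, so its direction is no independent evidence.

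The 4 with the smallest p between the forms were MYH3, the embryonic myosin heavy chain, CDKN1C, a cell cycle inhibitor, TNNC2, a fast troponin, and CHRND, an acetylcholine receptor subunit. MYH3 stood at 1.84 ± 0.22 CPM in untreated cells, 13.1 and 10.8 CPM with WT-MyoD and 390 ± 14 CPM with VP64-MyoD. CDKN1C stood at 2.16 ± 0.10, 5.78 ± 0.32 and 141 ± 11 CPM. TNNC2 stood at 0.297 ± 0.034 and 0.561 ± 0.11 CPM in untreated and WT-MyoD cells and at 61.4 ± 5.7 CPM with VP64-MyoD. These 3 changed far more with VP64-MyoD than with WT-MyoD. CHRND, by contrast, was already at 16.6 ± 0.45 CPM with WT-MyoD, from 2 and 0 counts in untreated cells, and reached 242 ± 25 CPM. The differences between the forms were log2 fold changes of 5.02, 4.60, 6.74 and 3.87 (edgeR adjusted p at or under 6.1e-14), so MYOG, at 2.81, differed less than these. CDKN1A, another cell cycle inhibitor, was the 1 gene lower with VP64-MyoD, at 602 ± 44 against 700 ± 3.9 CPM; it is named here after its values were seen.

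**Figure D3:**
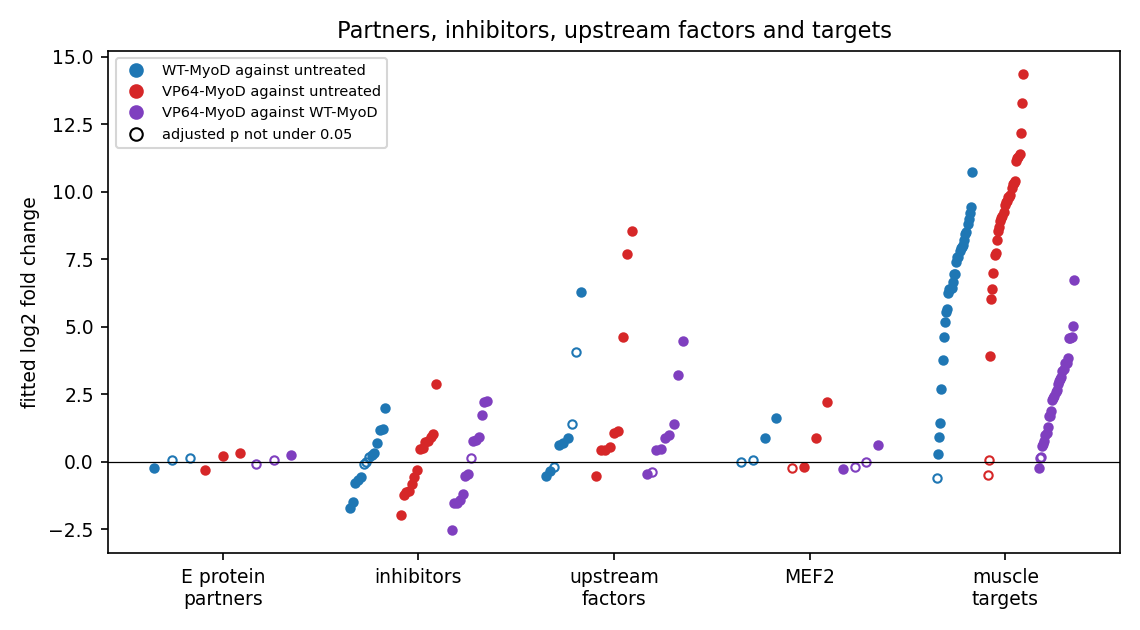
Fitted log2 fold change of each gene of the 5 lists (partners, inhibitors, upstream factors, MEF2 and muscle targets) in the 3 comparisons. Filled points have an edgeR adjusted p under 0.05, and a fitted value of a gene with no count in untreated cells depends on the prior count. The muscle targets lie high in both comparisons with untreated cells, while the inhibitors lie on both sides of 0.

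Likeness to a member was measured as the root-mean-square distance between mean-centred log2 CPM over the 6 libraries, in which only the pattern and not the level counts. The 3 genes nearest to MYOG were ACTA1, skeletal muscle actin (distance 0.095), DES, the muscle intermediate filament desmin (0.17), and PDLIM3, a Z-disc protein (0.20), where the median gene was at 4.08. ACTA1 followed MYOG in level as well, at 0.321 and 0.227, 36.8 and 32.6, and 239 and 205 CPM in the untreated, WT-MyoD and VP64-MyoD libraries. DES stood higher throughout, at 1.34, 136 and 1210.2 CPM on average.

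The 3 genes nearest to MYOD1 were PADI2, an enzyme that converts arginine to citrulline (0.17), SCN7A, a sodium channel-related protein (0.17), and ACTC1, cardiac actin, which embryonic skeletal muscle makes too (0.26). The median gene was at 3.28. PADI2 stood at 2.45, 234 and 477 CPM on average in untreated, WT-MyoD and VP64-MyoD cells, and ACTC1 at 12.8, 1086 and 1616 CPM. With MYOD1 at 0 in untreated cells, its distances there depend on the prior count of 2. MYOD1 and MYOG themselves were 1.01 apart, and MYOD1 ranked 88th among genes by nearness to MYOG.

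**Figure D4:**
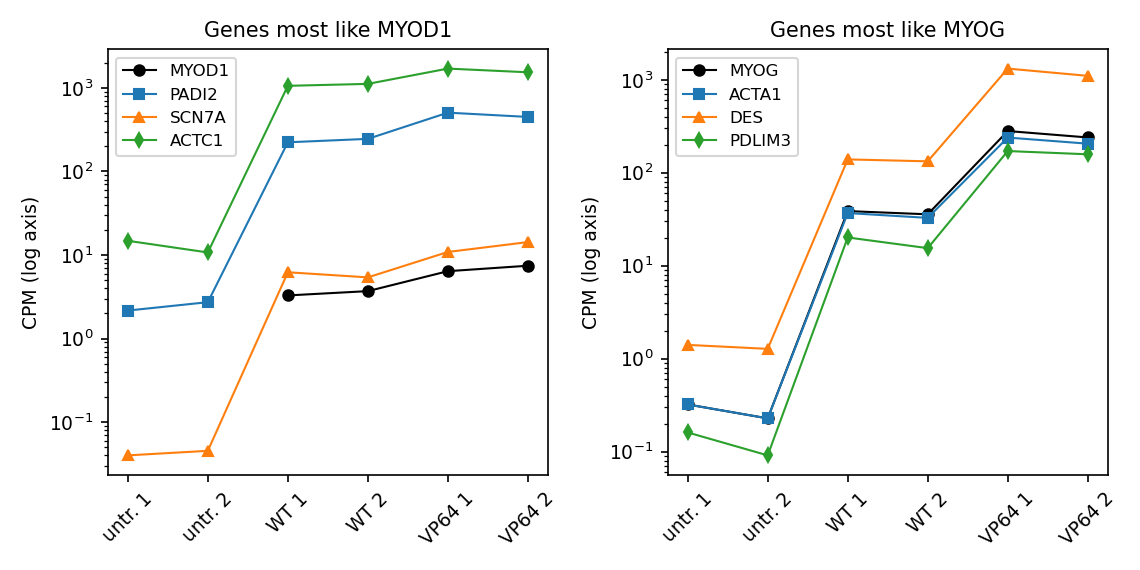
Level in each library (CPM, log axis) of MYOD1 and the 3 genes nearest to it in pattern (left), and of MYOG and its 3 nearest genes (right). MYOD1 has no points in the untreated libraries, where it had no count. The step from WT-MyoD to VP64-MyoD is small for the genes on the left and larger for those on the right.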

How the data were processed

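CASAVA, Bowtie 0.12.9, DESeq 1.10.1 and the build hg19 are named in the submitters' processing notes. How reads were counted is not given in the sources used here. The deposited read counts are whole numbers per RefSeq transcript, all even. In the authors' deposited table the signal is a group mean of counts over size factors; its ratio (fold change), log2 fold change and p-value columns set each MyoD group against untreated, per the file headers. Of 40710 rows, 39324 were matched to a symbol through RefSeq and 517 through GENCODE; 868 kept their accession (0.601% to 0.744% of counts). Rows were summed per gene.

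All 6 libraries entered 1 edgeR 4.0.16 fit in R 4.3.3 (TMM, filterByExpr with minimum count 10 and total 15, quasi-likelihood test, two-sided, Benjamini-Hochberg over all features, calls at 0.05); the script was tested on simulated data. SE is the absolute log2 fold change over the root of F. Members and lists were chosen with earlier results of these data known. Named list genes are up to 4 per list with the smallest adjusted p between the forms. Alternatives were RLE, library totals, DESeq2 1.42.0, limma-voom (limma 3.58.1), no filter, a replicate block, fits of 2 groups, read pairs counted once and leaving out each library. The labels number the replicates but do not say that they were separate cultures, so p-values measure only the spread between these libraries, which may be technical. Replicates differed by more than sampling noise (chi-square per degree of freedom 3.43 to 13.5). Floors (3 read pairs) and 95% intervals cover counting error only, and rest on taking 2 counts as 1 read pair.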

Additional observations from a re-analysis of the deposited data

How the results depend on the processing

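MYOD1 and MYOG kept their direction and their call in all 3 comparisons under all 14 alternatives. For MYOG the log2 fold change over untreated ran from 6.84 to 7.34 with WT-MyoD and from 9.65 to 10.14 with VP64-MyoD when single libraries were left out, and from 2.69 to 2.91 between the forms. For MYOD1 between the forms the lowest value was 0.88, and the highest adjusted p was 0.0035, from a fit without VP64-MyoD replicate 2. MYF5 and MYF6, at 0 counts, could not be fitted under any setting. The transgene rests most on the untreated libraries: without untreated replicate 1 its log2 fold change was 9.72 with WT-MyoD and 6.66 with VP64-MyoD, and without untreated replicate 2 it was 7.44 and 4.37. Scaling by library totals alone moved the median of all features by 0.17 and 0.19 (log2) against untreated cells. Under it 2 E proteins were called with WT-MyoD, both higher, and the log2 change of MEF2A with VP64-MyoD went from -0.18 to 0.0094. The cause was not tested. Leaving out single libraries gave 0 to 2 called E proteins with WT-MyoD and 0 to 2 between the forms. The labels give replicate numbers that the groups share but do not say that they pair the libraries, and deviations of same-numbered libraries were nearly uncorrelated (0.0071 to 0.032). With a replicate block the log2 fold change of MYOG was 7.06 with WT-MyoD, 9.87 with VP64-MyoD and 2.81 between the forms. The muscle targets called higher with WT-MyoD went from 31 to 30 under it. Depth limits the silent genes and the untreated level of MYOG, which rests on 13 read pairs.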

Other observations

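Of the 32 muscle genes listed as targets, 17 have a promoter window in the RefSeq table. All 17 windows hold 1 or more E-box (CANNTG) matches, against 68.9% of 27305 windows of the same length. The stricter CAGCTG, which is one form of that E-box, was in 9 of the 17 (52.9%), against 17.7% of all windows, and the MEF2-like CTANNNNTA in 5 of the 17 (29.4%), against 16.7%. The matches are a description of these letters, counted on both strands, and the list was chosen as known targets, so they were not tested. MYOG, MYF5 and MYF6 hold none of the stricter form.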
